A study of Mus musculus with 12 samples.

Results

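The CCAAT/enhancer-binding proteins (C/EBPs) were followed in RNA of gonadal white adipose tissue (WAT), M. vastus lateralis muscle and liver, 6 h after an intraperitoneal injection of unacylated ghrelin (UAG). UAG lacks the acyl group by which ghrelin activates the growth hormone secretagogue receptor (GHSR). The family comprised 7 genes, namely Cebpa, Cebpb, Cebpd, Cebpe, Cebpg, Cebpz and Ddit3. Every probe set annotated with one of these symbols alone was included, which gave 5 of the 18193 genes with a symbol of their own on the array and 10 of its 45037 non-control probe sets. Cebpe and Cebpz had no probe set under their symbols in the annotation used and were not analysed here. The family was chosen by a readout of these arrays, since Cebpd had a UAG to saline ratio of at least 2 in all 3 tissues. The UAG contrast of Cebpd is therefore given as a description without a test.

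The groups were UAG at 20 nmol/kg and saline, each with 2 arrays per tissue and 12 arrays in all. All mice were 12 week old females lacking GHSR, of C57bl/6 background, so the saline mice carried the deletion too and no array of a wild type mouse was included. Ghsr itself was below an intensity of 30, which was used as a floor, on all 12 arrays. The methods give 2 mice per treatment, and the labels do not tie arrays of different tissues to a mouse, so the p-values reflect the spread among these arrays.

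The tissue labels were checked against marker genes, given as summed intensities. Skeletal muscle fibre markers summed to 140203 to 144995 on muscle arrays, hepatocyte markers to 104632 to 145940 on liver arrays, and adipocyte markers to 53682 to 66119 on WAT arrays. Muscle arrays also carried adipocyte markers, with sums of 29752 to 45784, all 8 of them above the floor, and Adipoq, the fat cell hormone adiponectin, at 7674 to 11936. Ucp1, the uncoupling protein of brown fat, was at 1043 to 3713 on muscle arrays. Single arrays stood apart in other markers. The brown adipocyte sum of WAT saline replicate 1 was 21871, with 2784 to 4957 on the other WAT arrays. The skeletal muscle fibre sum of the same array was 4406, with 1008 to 1695 on the other WAT arrays. The smooth muscle sum of WAT saline replicate 2 was 35490, with 6473 to 7288 on the others. The neutrophil sum of muscle UAG replicate 2 was 8284, with 371 to 838 on the others. The epithelial and mesothelial sum of muscle saline replicate 2 was 3061, with 273 to 881 on the others.

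The C/EBPs analysed here are basic leucine zipper (bZIP) transcription factors that bind DNA as dimers with each other or with other bZIP proteins. In fat cell differentiation C/EBPβ and C/EBPδ act early and C/EBPα later, together with PPARγ. In liver C/EBPα sustains metabolic genes, and C/EBPβ and C/EBPδ are known as inducers of acute-phase genes. Cebpd is also a known glucocorticoid-responsive gene. C/EBPγ lacks a strong activation domain, and Ddit3 encodes CHOP, a stress-induced member that dimerizes with the others and alters their binding. C/EBPε is the member of maturing granulocytes.

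In the GRCm38.p6 assembly of RefSeq, Cebpd lies at chr16:15887286-15889545, Cebpb at chr2:167688915-167690432, Cebpa at chr7:35119293-35121928, Cebpg at chr7:35046422-35056566 and Ddit3 at chr10:127290793-127296291. Cebpa and Cebpg are thus neighbours on chromosome 7. The RefSeq promoter table held 4 of the 7 members, Cebpa, Cebpb, Cebpg and Ddit3. The 250 bases upstream of each start site were searched on both strands for sites of the family's own class and of its common regulators. The stretches shown are those with a bZIP-type match, since Cebpb, Cebpa and Ddit3 are set against each other in what follows. Capitals mark the match, and each stretch reads 5′ to 3′ on the plus strand, on which all 3 genes lie.
Cebpb promoter, chr2:167688855-167688914: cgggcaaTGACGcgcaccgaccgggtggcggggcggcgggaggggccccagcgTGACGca
Cebpa promoter, chr7:35119099-35119148: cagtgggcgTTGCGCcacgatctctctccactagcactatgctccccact
Ddit3 promoter, chr10:127290543-127290592: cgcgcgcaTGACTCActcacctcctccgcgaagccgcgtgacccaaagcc

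Cebpb held the core of the cyclic AMP response element, TGACG, at 3 positions. These were bases 53 to 49 and 7 to 3 upstream of the start, shown above, and bases 180 to 176 on the reverse strand. This motif was in 17.8% of 32851 promoters of the same length. Cebpa held TTGCGC, the core of the C/EBP palindrome, at bases 185 to 180 and TATAAA at bases 30 to 25, with shares of 5.34% and 12.4% of promoters. Ddit3 held the AP-1 letters TGANTCA at bases 242 to 236, with a share of 6.75%, and CCAAT on the reverse strand at bases 77 to 73. Cebpg held CCAAT at 2 positions on the reverse strand, bases 89 to 85 and 28 to 24, a motif in 33.8% of promoters. The C/EBP-ATF composite TGATGNAA and the glucocorticoid receptor core AGAACA, in 3.45% and 16.1% of promoters, had no match in these 4 windows. These matches are letters in a window and overlap no other motif searched.

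Cebpd, an early regulator of adipogenesis and of the acute-phase response, was about 2-fold higher on UAG arrays than on saline arrays in all 3 tissues, by the measure that chose the family. In WAT, probe set 1423233_at read 447.8 and 602.7 on UAG arrays, against 153.6 and 346.7 on saline arrays. In muscle it read 1314.3 and 1300.5 on UAG arrays, against 528.9 and 545.9 on saline arrays. In liver it read 219.7 and 300.7 on UAG arrays, against 64.7 and 166.1 on saline arrays. Both UAG arrays lay above both saline arrays in each tissue, and the tissues differed in how closely replicates lay together. The study reported the opposite direction for WAT and muscle. Its quantitative PCR, on separate mice, gave Cebpd as significantly lower with UAG in both, and as tending upward in liver. From the arrays, it placed Cebpd and Lep among genes that tended to be lower in WAT and muscle. The cause of this disagreement was not tested.

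The ratio of mean intensities was 2.10 for WAT, 2.43 for muscle and 2.26 for liver. The log2 differences were 1.17 (SE 0.40), 1.28 (SE 0.17) and 1.31 (SE 0.40), with n = 2 arrays per treatment in each tissue. In muscle, the ratios of single UAG to single saline arrays spanned 2.38 to 2.49. In WAT they spanned 1.29 to 3.92 and in liver 1.32 to 4.65. Saline replicate 1 was the lowest Cebpd array in each tissue. Without it, the ratio was 1.52 in WAT and 1.57 in liver, and 2.39 in muscle. Without UAG replicate 2 the ratio was 1.79 in WAT and 1.90 in liver, so the 2-fold limit was passed with any single array left out in muscle alone. Without saline replicate 2 the ratio was 3.42 in WAT and 4.02 in liver. The Actb 3′/5′ ratio, a measure of RNA integrity, was 1.94 and 2.35 on UAG arrays of liver, against 1.70 and 1.78 on saline arrays. The Gapdh ratio of the same kind was 0.723 and 0.695 on UAG arrays of liver, against 0.714 and 0.668 on saline arrays, with overlap. The part of RNA integrity in the liver values was not tested. WAT saline replicate 1 was the array with the high brown adipocyte and muscle fibre sums, whose part was not tested either. In bulk tissue, fewer cells of a type and less RNA per cell cannot be told apart.

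The other Cebpd probe set, 1456605_at, was dim and did not share this pattern. It lay between the floor and 67.4 and was below 30 on 3 of 12 arrays. UAG and saline arrays overlapped in each tissue, with ratios of 1.10 in WAT, 1.15 in muscle and 0.749 in liver. Across the 12 arrays, its log2 values had a Pearson r of 0.14 with those of 1423233_at.

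**Figure D1:**
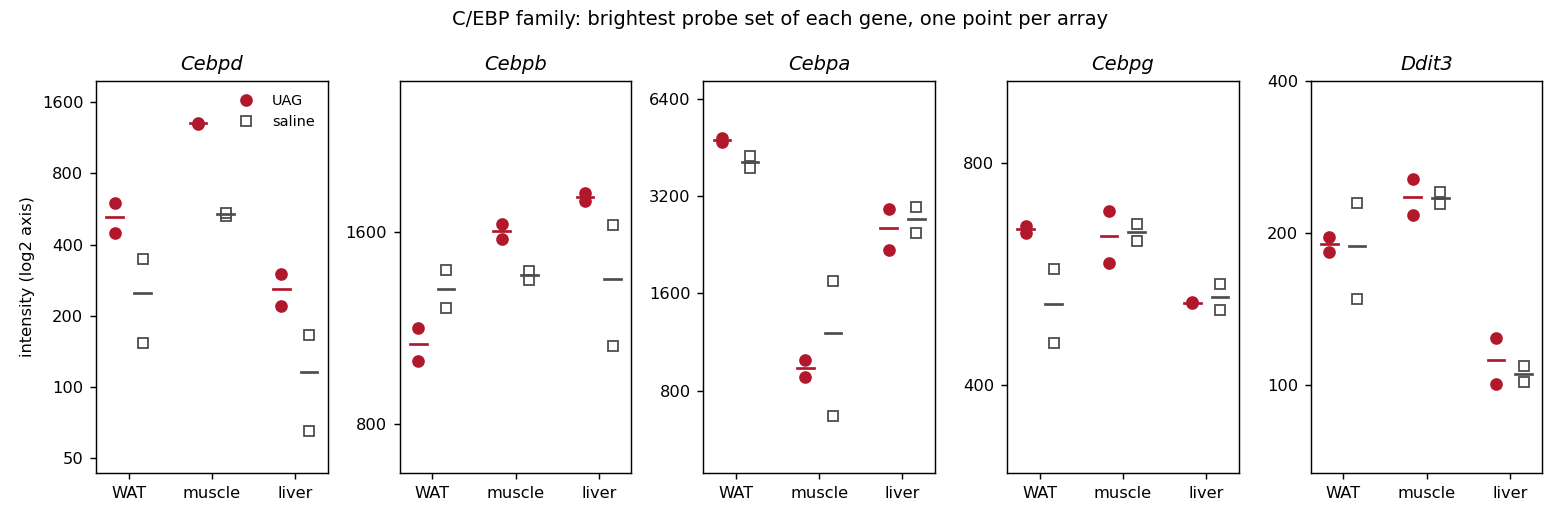
Intensity of the brightest probe set of each gene on a log2 axis, by tissue, with UAG arrays as filled circles left of saline arrays as open squares and bars at the mean of 2 arrays. Cebpd was higher on UAG arrays in all tissues without overlap, whereas Ddit3 arrays overlapped in all of them.

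By the ratio rule, 1 of 10 member probe sets was at least 2-fold higher in each tissue, and it was Cebpd 1423233_at each time. None was at most 0.5-fold. Of all probe sets, 0.249% were 2-fold higher and 0.859% 2-fold lower in WAT. These shares were 0.133% and 0.162% in muscle, and 0.238% and 0.193% in liver. The ratio nearest to Cebpd among the other members was 1.38, for Cebpg 1425261_at in WAT, and the WAT ratio of 2.10 was the lowest that passed.

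The remaining 8 probe sets, those of Cebpb, Cebpa, Cebpg and Ddit3, were tested with limma, fitted to every probe set that averaged 30 or more. None reached an adjusted p under 0.05, and the smallest adjusted p was 0.751 in WAT, 0.9999 in muscle and 0.9998 in liver. At an unadjusted p under 0.05 the counts were 0, 0 and 1. Over all probe sets, limma called 0% in WAT (0 of 25307, smallest adjusted p 0.430), 0% in muscle (0 of 25105, smallest adjusted p 0.248) and 0.00397% in liver (1 of 25160). At an unadjusted p under 0.05 these counts were 1723, 468 and 919. The statements below on UAG against saline in these 4 genes are therefore on values and their overlap, and no limma call stands behind them.

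UAG arrays lay wholly above saline arrays for 5 and wholly below them for 2 of the 9 member probe sets that passed the intensity filter in WAT. The shares over all filtered probe sets were 22% and 15.3%. In muscle the counts were 4 above and 0 below of 10, with shares of 11.4% and 11.3% over all. In liver they were 3 above and 1 below of 10, with shares of 15.3% and 15.2%. Each count above includes Cebpd 1423233_at, whose higher mean was the ground on which the family was chosen. In WAT the others above were the Cebpa probe set and all those of Cebpg, and the 2 below were those of Cebpb. Probe sets of the same gene were read on the same RNA and are not independent.

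**Figure D2:**
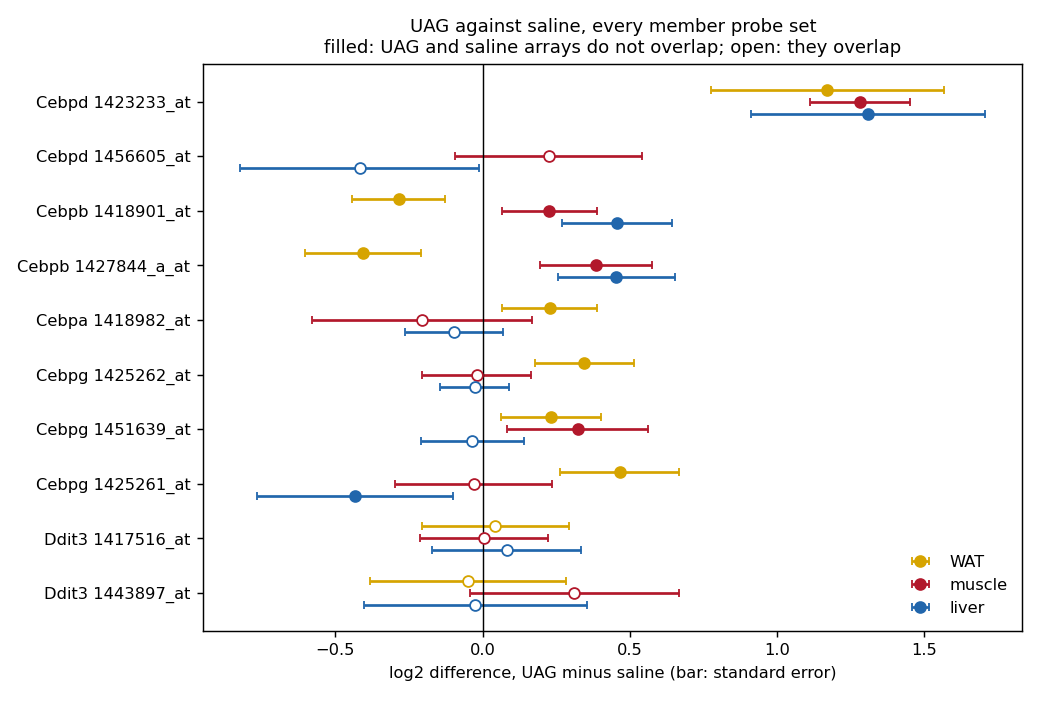
Log2 difference, UAG minus saline, for each member probe set in WAT, muscle and liver, with standard errors from limma on 4 arrays per tissue. Filled points mark probe sets whose UAG and saline arrays do not overlap, and Cebpd 1456605_at is not drawn in WAT, where it failed the intensity filter. Both Cebpb probe sets lie below 0 in WAT and above 0 in muscle and liver.

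Cebpb, the early adipogenic partner of Cebpd, was lower on UAG arrays in WAT and higher in muscle and liver, with no overlap in any of them. In WAT, 1418901_at read 1131.4 and 1004.9 on UAG arrays, against 1391.9 and 1213.2 on saline arrays. In muscle it read 1647.7 and 1558.2 on UAG arrays, against 1391.0 and 1346.4 on saline arrays. In liver it read 1838.7 and 1786.7 on UAG arrays, against 1060.0 and 1642.0 on saline arrays. The liver difference was thus mostly that of saline replicate 1, the array on which Cebpd was lowest too. The ratios were 0.820 in WAT, 1.17 in muscle and 1.34 in liver. By limma, the log2 differences were -0.29 (SE 0.16, adjusted p 0.784), 0.23 (SE 0.16, adjusted p 0.9999) and 0.46 (SE 0.19, unadjusted p 0.0382, adjusted p 0.9998).

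The other Cebpb probe set, 1427844_a_at, was read on the same RNA and had the same directions. In WAT it read 286.1 and 339.2 on UAG arrays, against 470.8 and 361.7 on saline arrays. Its ratios were 0.751 in WAT, 1.31 in muscle and 1.33 in liver, with no overlap in any tissue. The log2 values of the pair had a Pearson r of 0.85 across the 12 arrays, which share tissue and array. The UAG difference of 1418901_at in WAT minus that in liver was -0.74 on the log2 scale (SE 0.26, unadjusted p 0.0164 by limma, adjusted p 0.963). WAT minus muscle gave -0.51 (SE 0.26, unadjusted p 0.0763 by limma, adjusted p 1). No member other than Cebpd, which was not tested, passed the adjusted test for a UAG difference that varied between tissues. Unadjusted, 3 of 8 probe sets had a p under 0.05 for WAT minus liver, 0 for muscle minus liver and 1 for WAT minus muscle. Over all 26530 probe sets in that fit, 4.86%, 2.81% and 3.57% had an unadjusted p under 0.05, and limma called 0%, 0% and 0.00377% after adjustment. The 3 probe sets were both of Cebpb and the dim 1425261_at of Cebpg, so that they come from 2 genes.

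Cebpa, the sustaining factor of the fat cell and of the hepatocyte, had ratios of 0.777 to 1.17. In WAT it read 4689.6 and 4837.1 on UAG arrays, against 4241.5 and 3901.0 on saline arrays, a ratio of 1.17 without overlap. The log2 difference was 0.23, with a 95% interval of -0.17 to 0.63. In liver it read 2920.6 and 2176.4 on UAG arrays, against 2961.4 and 2458.2 on saline arrays, a ratio of 0.940 with overlap. The liver interval ran from -0.48 to 0.28.

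In muscle, Cebpa read 882.4 and 996.2 on UAG arrays, against 668.7 and 1749.1 on saline arrays, a ratio of 0.777 that rested on saline replicate 2. Without that array the log2 ratio was 0.49. The adipocyte marker sums of the same arrays were 33524 and 37979 with UAG, against 29752 and 45784 with saline. The 4 arrays had the same order in both. Adipoq read 9113 and 10380 on UAG arrays, against 7674 and 11936 on saline arrays. Saline replicate 2 also had the high epithelial and mesothelial sum. The part of RNA of other tissues in the muscle level of Cebpa was not tested.

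Cebpg, the short member without a strong activation domain, was higher on UAG arrays in WAT in all 3 of its probe sets. Probe set 1425262_at read 642.8 and 656.9 on UAG arrays, against 574.1 and 455.6 on saline arrays, a ratio of 1.26. The ratios of 1451639_at and 1425261_at were 1.17 and 1.38, and none of the 3 overlapped. By limma the WAT log2 differences were 0.35, 0.23 and 0.47, with adjusted p values of 0.758, 0.821 and 0.751. In muscle the ratios were 0.989, 1.24 and 0.979, of which 1451639_at did not overlap. In liver they were 0.981, 0.976 and 0.734. The last, 1425261_at, read 44.1 and 37.7 on UAG arrays, against 47.4 and 64.0 on saline arrays, close to the floor. The interval of 1425262_at in liver was -0.29 to 0.24 on the log2 scale.

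Ddit3, the stress-induced member, had ratios of 1.01 to 1.06 in its brighter probe set. In WAT, 1417516_at read 183.4 and 196.3 on UAG arrays, against 228.9 and 148.0 on saline arrays. In muscle it read 255.4 and 217.0 on UAG arrays, against 228.6 and 240.9 on saline arrays. In liver it read 100.5 and 123.6 on UAG arrays, against 101.5 and 109.3 on saline arrays. UAG and saline arrays overlapped in each of these. The 95% intervals of the log2 difference were -0.57 to 0.66, -0.49 to 0.50 and -0.49 to 0.66. With 2 arrays per treatment, these intervals leave room for a difference of either sign. The other Ddit3 probe set, 1443897_at, was below 30 on 5 of 12 arrays. Its ratios were 1.01 in WAT, 1.30 in muscle and 0.980 in liver, with overlap in each.

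The levels of the members in the 3 tissues were not used to choose the family and were compared between tissues. In a fit of all 12 arrays, averaged over UAG and saline, limma called 6 of 10 member probe sets for WAT minus liver, 4 higher and 2 lower. It called 6 for muscle minus liver, also 4 higher and 2 lower, and 3 for WAT minus muscle, 1 higher and 2 lower. Over all probe sets the shares called were 59.2%, 61.5% and 49.9%, so that the members' share was close to that of the array as a whole in both contrasts with liver and below it for WAT minus muscle.

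Cebpa averaged 4417 ± 427 in WAT, 2629 ± 378 in liver and 1074 ± 470 in muscle (SD, n = 4 arrays each), and no 2 tissues overlapped. WAT was 4.37-fold above muscle (limma adjusted p 3.84e-05) and 1.69-fold above liver (adjusted p 0.0193). The call against liver was lost without any of WAT UAG replicate 2, liver saline replicate 2 and liver UAG replicate 2. The log2 difference of muscle minus liver was -1.37 (adjusted p 0.000482). Cebpd had another order, with 922 ± 445 in muscle, 388 ± 188 in WAT and 188 ± 99.0 in liver (SD, n = 4 arrays each). Muscle was 5.14-fold above liver (limma adjusted p 4.42e-05) and WAT 2.12-fold above liver (adjusted p 0.00967). WAT minus muscle was -1.28 on the log2 scale (adjusted p 0.00480). These spreads hold the UAG difference of Cebpd, and WAT arrays overlapped those of both other tissues. On saline arrays alone WAT minus liver was 1.16 and WAT minus muscle -1.22, and neither was called. The dim Cebpd probe set 1456605_at did not share this order, with log2 differences of -0.34 for WAT minus liver, 0.12 for muscle minus liver and -0.46 for WAT minus muscle, of which limma called none (smallest adjusted p 0.158).

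Cebpb averaged 1582 ± 358 in liver, 1486 ± 141 in muscle and 1185 ± 162 in WAT (SD, n = 4 arrays each). WAT minus liver was -0.39 on the log2 scale (limma adjusted p 0.0230), and the arrays overlapped. On saline arrays alone this difference was -0.022 and was not called, and the call was also lost with any of 5 single arrays left out. Muscle and liver did not differ beyond their spread (-0.06, adjusted p 0.702), nor did WAT and muscle (-0.33, adjusted p 0.0557). The other Cebpb probe set, 1427844_a_at, disagreed on muscle minus liver, with -0.52 (limma adjusted p 0.0115), and gave -0.77 for WAT minus liver (adjusted p 0.00112).

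Cebpg averaged 640 ± 44.5 in muscle, 582 ± 91.9 in WAT and 522 ± 18.5 in liver (SD, n = 4 arrays each), and muscle was 1.23-fold above liver (limma adjusted p 0.0284). This call was lost with any of 5 single arrays left out. The pairs with WAT did not differ beyond their spread in this probe set. The other Cebpg probe sets differed from it in this, with WAT minus liver at 0.44 for 1451639_at (limma adjusted p 0.0117) and WAT minus muscle at -0.66 for the dim 1425261_at (adjusted p 0.00414). Ddit3 averaged 235 ± 16.5 in muscle, 189 ± 33.5 in WAT and 109 ± 10.7 in liver (SD, n = 4 arrays each). Muscle was 2.17-fold (limma adjusted p 8.00e-05) and WAT 1.73-fold (adjusted p 0.00116) above liver, and WAT and muscle did not differ beyond their spread (-0.33, adjusted p 0.0993). In the dim Ddit3 probe set 1443897_at the differences were 0.16 for WAT minus liver, -0.01 for muscle minus liver and 0.18 for WAT minus muscle, none called (smallest limma adjusted p 0.624).

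**Figure D3:**
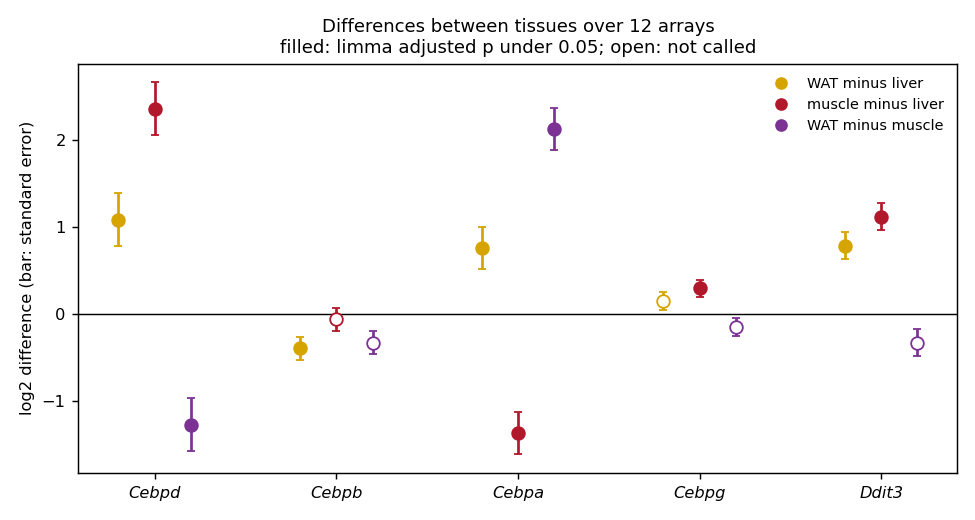
Log2 differences between tissues for the brightest probe set of each gene over 12 arrays, with standard errors, filled where limma's adjusted p was under 0.05. Cebpa lies above 0 for WAT minus muscle and Cebpd below it, at 2.13 and -1.28.

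The genes most like Cebpd were sought by Pearson r of log2 values over 12 arrays, among 9118 genes that averaged 100 or more in intensity. The arrays share tissue, so that r reflects tissue levels as well as treatment. Ccn2, a secreted connective tissue growth factor, came first with r = 0.95, followed by Msl1 (0.92), Stx8 (0.91), Slf1 (0.90) and Pot1a (0.90). With the mean of each tissue taken off, the nearest were Errfi1 (0.96), Ccn2 (0.94), Usp54 (0.94), Ier3 (0.93) and Dbr1 (0.91). Errfi1 encodes an inhibitor of the EGF receptor, and Ier3 is an immediate early gene.

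Errfi1 in liver read 9798 and 11446 on UAG arrays, against 3057 and 8103 on saline arrays. Ccn2 in muscle read 536.8 and 463.9 on UAG arrays, against 223.3 and 288.3 on saline arrays. The lowest array of Errfi1 and of Ccn2 was saline replicate 1 in each tissue, as for Cebpd. Ier3 and Dbr1 had their lowest array there in each tissue too, and Usp54 in WAT and liver. These genes were picked for their likeness to Cebpd over the same arrays. A shared lowest array thus follows from that choice and is no separate result.

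**Figure D4:**
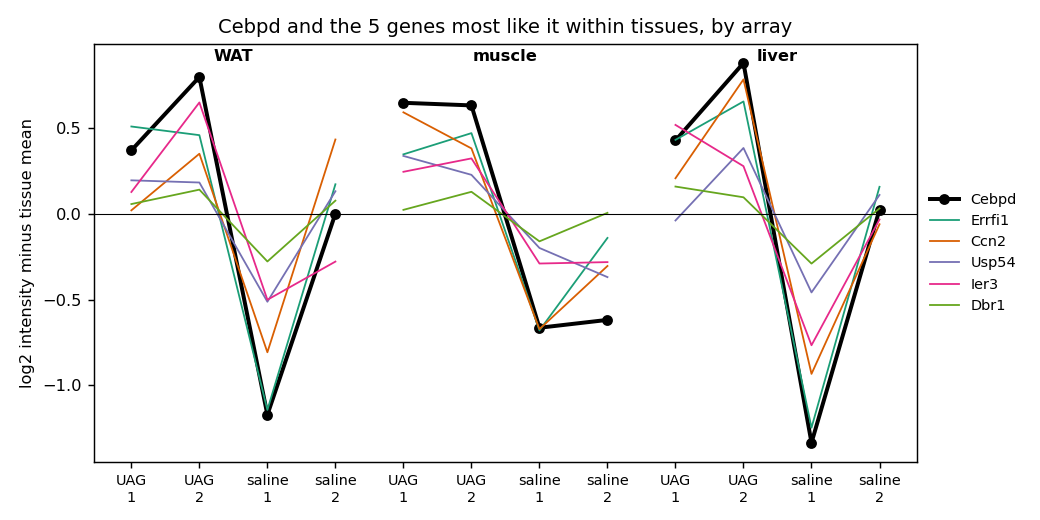
Log2 intensity minus the mean of its tissue for Cebpd and the 5 genes closest to it with tissue means taken off, on each of 12 arrays, with UAG left of saline. In WAT and liver the deepest point of Cebpd is saline replicate 1, and saline replicate 2 lies near the tissue mean.

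For Cebpa the 5 most similar genes over 12 arrays were Lrp10, Nucb1, Cgnl1, Akt1 and Tcn2, with r of 0.98 to 0.99. Akt1 encodes a kinase of the insulin signal and Tcn2 the vitamin B12 carrier transcobalamin. As for Cebpa, their lowest tissue was muscle, and within muscle the highest array was saline replicate 2. This likeness follows from their choice by r with Cebpa over the same arrays. For Cebpb no gene came as close, and Slc25a20, the mitochondrial carnitine carrier, led with r = 0.86. Noct, a circadian gene, was also among these 5 with r = 0.81. In liver it read 881 and 1188 on UAG arrays, against 454 and 505 on saline arrays.

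Among the members themselves, Cebpd and Ddit3 had an r of 0.72 over the 12 arrays and of -0.03 with tissue means taken off. The r of Cebpd with Cebpb was 0.15 over the 12 arrays and 0.42 with tissue means taken off.

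The genes around the family are given as counts of log2 differences of either sign, beside those of all genes, without a test of the list. The lists were written with earlier results of these data known, so the counts describe these arrays and are no independent support. limma called no gene of any of these lists in any tissue. Of all genes, 54.4% were higher with UAG in WAT, 52.3% in muscle and 51.6% in liver, with median log2 differences of 0.03, 0.01 and 0.01. Of the glucocorticoid-induced genes, a list without Cebpd, 11 of 12 were higher in WAT, 12 of 12 in muscle and 11 of 12 in liver. Their medians were 0.58, 0.48 and 0.48. The list holds Fkbp5 and Zbtb16, which the study had already reported as regulated by UAG on these arrays. Tsc22d3, which encodes the glucocorticoid-induced leucine zipper GILZ, read 1521 and 2353 on UAG arrays in WAT, against 865 and 705 on saline arrays, a ratio of 2.47. The metallothionein gene Mt2 read 5281 and 3648 on UAG arrays in liver, against 1310 and 2129 on saline arrays, a ratio of 2.60. In muscle Dusp1, a MAP kinase phosphatase, had a ratio of 1.67 without overlap, and Ddit4 one of 1.70 with overlap. With each array left out in turn, 9 to 12 of 12 genes were higher, and the medians spanned 0.35 to 0.76 (WAT), 0.32 to 0.50 (muscle) and 0.28 to 0.71 (liver). The lowest of each was without UAG replicate 2. Cdkn1a in liver passed the intensity filter through the UAG arrays alone and could count only as higher. Adjusted p values by limma were 0.566 for Tsc22d3 and 0.471 for Mt2.

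Of the bZIP partners, Atf3, an immediate early stress factor, was higher on both UAG arrays in muscle and liver, with ratios of 1.54 and 1.62, and 1 of its liver saline arrays was at the floor. Jun in liver had a ratio of 1.92 without overlap. Batf3 had a ratio of 1.45 in WAT without overlap, and in muscle it read 37.7 and 60.7 on UAG arrays with both saline arrays at the floor or within 1 unit of it. In WAT, Fos read 226.0 and 207.3 on UAG arrays, against 93.9 and 255.3 on saline arrays, with overlap. Of the 8 partners measured in WAT 5 were higher, of 8 in muscle 4 and of 6 in liver 3. With an array left out, the count was 4 to 5 in WAT, 5 to 7 in muscle (7 without UAG replicate 2) and 3 to 5 in liver (5 without saline replicate 2 or UAG replicate 2).

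Among modulators of C/EBP proteins, Id2, an inhibitor of helix-loop-helix factors, read 223.0 and 171.6 on UAG arrays in WAT, against 305.5 and 358.7 on saline arrays, a ratio of 0.594. Trib1, a pseudokinase that targets C/EBPα for degradation, had ratios of 1.42 in WAT and 1.59 in muscle without overlap. Id3 had a ratio of 1.53 in liver. Of the modulators, 8 of 11 were higher in WAT, 5 of 11 in muscle and 6 of 11 in liver. The liver count was 3 without UAG replicate 1, with a median of -0.11, and 9 without UAG replicate 2, with a median of 0.11.

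Of the adipogenic regulators, 11 of 20 were higher in WAT, 9 of 21 in muscle and 7 of 14 in liver, with medians of 0.09, -0.04 and -0.01. The sign of each median turned with single arrays left out, to -0.03 in WAT without UAG replicate 1, to 0.03 in muscle without saline replicate 2 and to 0.12 in liver without saline replicate 2. Zfp423, a factor of preadipocytes, read 209.3 and 244.6 on UAG arrays in WAT, against 140.6 and 106.0 on saline arrays, a ratio of 1.84. Klf15, a glucocorticoid-responsive factor of fat cells, had a ratio of 1.64 in WAT without overlap. Klf4 in liver had intensities of 82.0 and 46.8 on UAG arrays, against 30 (the floor) and 40.3 on saline arrays. Klf4 in liver and Dlk1 in WAT passed the intensity filter through the UAG arrays alone and could count only as higher. Gata3 in muscle passed through saline replicate 2 alone and could count only as lower. Without these genes the counts were 10 of 19 in WAT, 9 of 20 in muscle and 6 of 13 in liver.

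Of the C/EBP targets of adipocytes, 8 of 10 were higher in WAT, with a median of 0.05. This was 4 of 10 with a median of -0.018 without UAG replicate 2, and 5 of 10 without saline replicate 2. In muscle 4 of 10 were higher, with a median of -0.02, and in liver 5 of 8, with a median of 0.01. With an array left out, the count was 2 to 7 in muscle and 2 to 5 in liver. Retn in liver passed the intensity filter through the saline arrays alone and could count only as lower. Lep, the leptin gene and a classical C/EBPα target, read 2762 and 3283 on UAG arrays in WAT, against 1495 and 392 on saline arrays, a ratio of 3.20. In muscle it read 365.7 and 626.1 on UAG arrays, against 175.8 and 171.8 on saline arrays, a ratio of 2.85. The other genes of this list were within 2-fold in each tissue. The summed adipocyte markers given above, of which Lep is a member, overlapped between treatments in WAT and in muscle. WAT saline replicate 1 was the array with the high brown adipocyte sum. WAT saline replicate 2, with the lower Lep value, was that with the high smooth muscle sum. Their part in the WAT value of Lep was not tested.

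Of the C/EBP targets of hepatocytes, 11 of 11 were higher in liver, with a median of 0.24. Tat, tyrosine aminotransferase, read 5722 and 10464 on UAG arrays, against 6367 and 5772 on saline arrays, a ratio of 1.33. The hepatocyte marker sum, with which this list shares genes, was 105110 and 145940 on UAG arrays, against 104632 and 106781 on saline arrays. Without UAG replicate 2 the count was 7 of 11 and the median 0.01. Of the acute-phase genes, 10 of 12 were higher in liver, with a median of 0.15, and 3 of 7 in WAT. In muscle 1 of 5 was higher, with a median of -0.14. This muscle count was 0 without saline replicate 1 and 3 without saline replicate 2. With an array left out the liver median was 0.08 (without UAG replicate 2) to 0.27 (without UAG replicate 1). The WAT count was 1, with a median of -0.60, without saline replicate 2, and 4, with a median of 0.27, without saline replicate 1. Saa3 read 173.2 and 373.2 on UAG arrays in liver, against 118.2 and 153.4 on saline arrays, a ratio of 2.01. It was lower without overlap in WAT and muscle, with ratios of 0.667 and 0.719. In muscle Saa3 passed the intensity filter through the saline arrays alone, which fixed its direction. In WAT, Itih4 had a ratio of 0.459 and Lcn2 was at the floor on both UAG arrays, against 58.4 and 114.9 on saline arrays. Lcn2 could thus count only as lower in WAT, and 3 of the other 6 genes were higher.

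Of the STAT3 and interleukin 6 genes, 7 of 11 were higher in WAT, 4 of 10 in muscle and 6 of 11 in liver, with medians of 0.04, -0.02 and 0.07. The WAT count was 4, with a median of -0.03, without saline replicate 1, and the liver count ran from 4 without saline replicate 1 to 9 without saline replicate 2. Pim1, a kinase induced by STAT3, had ratios of 0.575 in WAT and 0.692 in muscle without overlap. Il6ra in liver had a ratio of 1.66 without overlap.

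Of the stress response genes around CHOP, 14 of 18 were higher in WAT, 9 of 18 in muscle and 3 of 18 in liver. The medians were 0.10, -0.01 and -0.05. Sesn2 in liver read 53.0 and 132.6 on UAG arrays, against 30 (the floor) and 31.0 on saline arrays, a ratio of at least 3.04. It passed the intensity filter there through the UAG arrays alone and could count only as higher. Of the other 17 genes in liver, 2 were higher. Bbc3, which encodes the pro-apoptotic protein PUMA, read 102.3 and 118.7 on UAG arrays in liver, against 261.7 and 197.8 on saline arrays, a ratio of 0.481. The count of 3 in liver was 6 to 8 with any single array left out, and that of 14 in WAT was 10 to 15.

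The targets of C/EBPε, whose own gene was not analysed here, had medians of opposite sign in WAT and muscle. In WAT 0 of 7 measured genes were higher, with a median of -1.29. For 3 of them, Lcn2, Chil3 and S100a9, the UAG mean was below the filter, so that they could count only as lower, and 0 of the other 4 were higher. In muscle 11 of 11 were higher, with a median of 0.95, and in liver 2 of 8, with a median of -0.26. Mmp8 in muscle passed the filter through UAG replicate 2 alone, and Mmp9 and Itgb2l in liver through the saline arrays alone, which fixed their direction. In WAT, Mmp9, a granulocyte protease, read 95.7 and 110.2 on UAG arrays, against 264.0 and 307.6 on saline arrays, a ratio of 0.36. In muscle, Chil3 read 64.7 and 598.2 on UAG arrays, against 30 and 50.8 on saline arrays. The neutrophil marker sum, with which this list shares genes, was 464 and 8284 on UAG arrays in muscle, against 371 and 838 on saline arrays. Without UAG replicate 2, 3 of 11 genes were higher in muscle and the median was -0.15. In WAT the neutrophil sum was 340 and 310 on UAG arrays, against 318 and 1030 on saline arrays, and without saline replicate 2 the median was -0.16 with 1 of 7 higher.

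**Figure D5:**
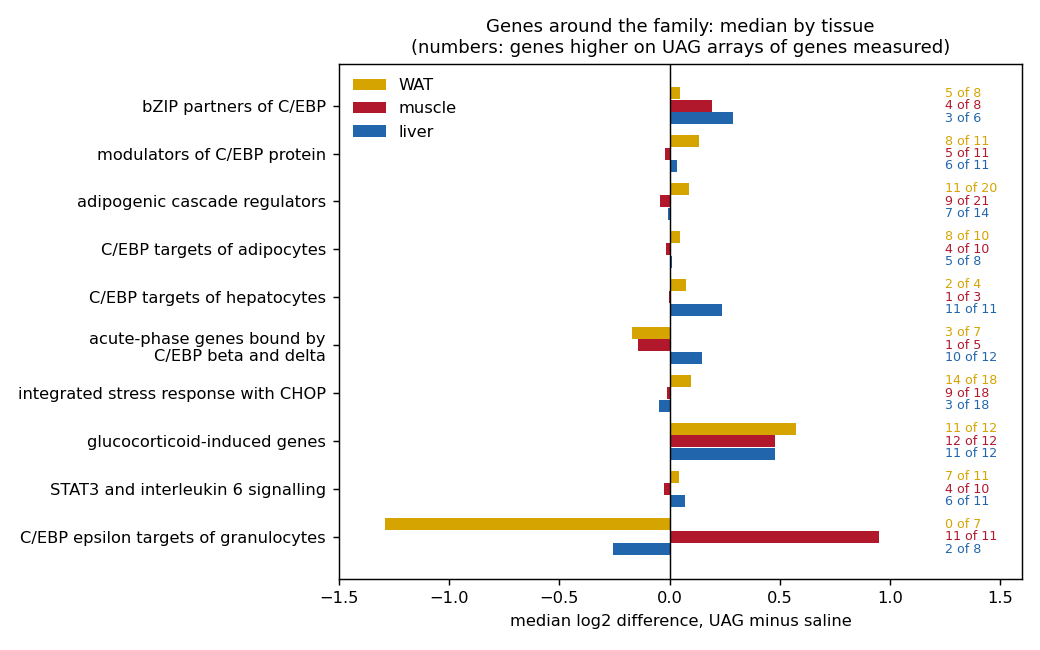
Median log2 difference, UAG minus saline, over the measured genes of each list in WAT, muscle and liver, with the number of genes higher on UAG arrays at the right. The lists were written with earlier results of these data known. The glucocorticoid-induced genes lie between 0.48 and 0.58 in the 3 tissues, and single arrays carry the C/EBPε bars, which are -0.16 in WAT without saline replicate 2 and -0.15 in muscle without UAG replicate 2.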

How the data were processed

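RNA of 12 samples was measured on Affymetrix mouse arrays. The authors normalized by quantiles, MAS5 is named in their notes (no version), and the deposited values are log2 intensities (base 2 was settled from their range, the highest giving an intensity of 25724). Read depth does not apply, and 2 arrays per group limit the precision. Groups and columns came from the sample titles. Values under 30 were set to 30, the threshold of the study. Ratios of mean intensities used its 2-fold rule. limma 3.58.1 in R 4.3.3 was fitted with an intensity trend to the 4 arrays of a tissue, over probe sets with a mean of at least 30, and to all 12 arrays for tissues, with Benjamini-Hochberg adjustment. The 64 control probe sets were left out. Gene names came from the platform annotation, in which 34945 probe sets named 1 gene, 932 several and 9160 none. A gene's level is that of its probe set with the highest mean. All member probe sets are named, as are, per list and tissue, genes that were 2-fold without overlap (at most 4) or otherwise those with the largest log2 differences. Not every gene so selected is described. Genes closest to a member were the 5 with the highest r. Adipoq, Ucp1 and Ghsr appear as marker values only, and Errfi1, Ccn2 and Noct were given values after these were seen. Members and lists were chosen with earlier results of these data known. Scripts were tested on simulated data. Replicate numbers were checked for pairing by the correlation of deviations from group means, which was 0.004 to 0.12 across tissues and -0.14 to 0.11 across treatments, so no block was used. Alternatives were other floors, filters, scalings and each array left out.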

Additional observations from a re-analysis of the deposited data

Results flagged for a closer look

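The UAG difference of Cebpb had opposite signs in WAT and in both other tissues, with every UAG array on one side of every saline array. For 1418901_at, the log2 difference UAG minus saline in WAT minus that in liver was -0.74, and minus that in muscle -0.51. For 1427844_a_at the values were -0.86 against liver and -0.79 against muscle. The limma test of the difference gave unadjusted p values of 0.0164, 0.0763, 0.0164 and 0.0246, and adjusted p values of 0.963, 1, 0.963 and 1, so none passed the adjusted threshold. Both probe sets were read on the same RNA and are no independent replicates of each other.

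The dim Cebpg probe set 1425261_at also had opposite signs, with a UAG difference in WAT that was 0.90 above that in liver (unadjusted p 0.0135 and adjusted p 0.932 by limma). Its mean intensity was 54.4 in WAT and 48.3 in liver, and with a floor of 100 its log2 ratio was 0 in both tissues.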

How the results depend on the processing

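The count of 1 member probe set 2-fold higher with UAG became 0 in liver with a floor of 100, and 0 in all 3 tissues when the gene level was the mean of all probe sets, since the dim Cebpd probe set then pulled the ratio down. With each array left out it was 0 to 1 in WAT and 0 to 1 in liver, with 0 without saline replicate 1 or UAG replicate 2. For tissues, the 6 calls of WAT minus liver were 1 on saline arrays alone and 3 with no filter on dim probe sets. The 6 calls of muscle minus liver were 3 on saline arrays alone, which hold 2 arrays per tissue. The 3 calls of WAT minus muscle were 3 to 5 with each array left out, with 5 without WAT saline replicate 1. Signs turned for Cebpg WAT minus liver (-0.041 on saline arrays alone), Cebpg WAT minus muscle (0.034 on UAG arrays alone) and Cebpb muscle minus liver (0.053 on saline arrays alone, and -0.22 to 0.095 with each array left out), none of which was called. The call of Cebpb WAT minus liver was lost without any of WAT saline 2, WAT UAG 2, liver saline 2 (-0.24), liver UAG 1 and liver UAG 2, and that of Cebpa without WAT UAG 2, liver saline 2 and liver UAG 2. That of Cebpg muscle minus liver was lost without muscle saline 2, muscle UAG 2, liver saline 2, liver UAG 1 and liver UAG 2. The cause of these losses was not tested. With the replicate block, the calls stayed at 6, 6 and 3 between tissues and at 0 after UAG, and it changed no other call. Of 300 alternative UAG ratios, 283 moved by less than the spread between replicates, and 17 moved by more. The lists' counts without each array were chosen after seeing the data.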
